A study of Mus musculus with 16 samples.

Results

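The array used here carries 60-base probes against intervals of the mouse genome that lie mostly between known genes and were put on it as candidate long intergenic noncoding RNAs (lincRNAs). Each interval is named by its chromosome, start, end and strand in the mm9 build, and an interval probed on both strands counts as 2 entries. An entry was kept when it lay on an autosome and at least 1 of its probes, outside the outer 12 spot rows at each end of the array, was scored well above background by the scanner software on 4 or more of 16 arrays. This left 3007 of 4429 autosomal entries, read by 6615 probes, among 23359 features tested in all. They comprise 1519 entries on the forward and 1488 on the reverse strand, at 2416 loci, of which 591 were kept on both strands. The level of an interval is the mean over its kept probes of log2 processed signal minus the 75th percentile of the array, so 0 marks a bright probe and -4 a dim one.

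The samples were colon tissue without visible tumour, taken on day 28 from ApcMin/+ mice, which carry 1 defective copy of the tumour suppressor gene Apc in every group, controls included. The 4 Sham mice drank plain water for 28 days. The 6 Control mice drank 1.5% dextran sulphate sodium (DSS), a salt that injures the colon lining, for 3 days and received saline. The 6 mice of the 5-ASA group drank the same DSS and received 5-aminosalicylic acid, a salicylate prescribed for ulcerative colitis. The labels disagree on dosing: the protocol has the drug or saline given into the colon and rectum for 28 days, while the sample descriptions have the drug in the drinking water, and water alone in Control, for the 25 days after DSS. Age and sex were not given in the sources used here. The tissue is bulk, so fewer cells of a type and less RNA per cell cannot be told apart. Of the listed colonocyte markers 12 of 13 were measured, and of the goblet cell markers 9 of 10.

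A lincRNA is a transcript that is often spliced and polyadenylated like a messenger RNA but codes for no known protein. Many candidates in mouse were found as stretches of chromatin that carry the histone marks of an active promoter and a transcribed body where no gene was annotated, which gives an approximate region rather than exact exons, and often no strand. Some known lincRNAs act near their own locus, as in genomic imprinting, some in nuclear bodies, and many have no known function.

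Sequences are given for the probes on which the results below turn, 5′ to 3′ as deposited, with mm9 coordinates and strand. Capitals mark AATAAA or ATTAAA, the hexamers that usually precede the cleavage and polyadenylation site of a transcript. The first set holds the brightest probe of 5 intervals that gave the smallest p in a group comparison or followed a neighbouring gene.
Interval near Riox1, chr12:85217650-85217709, forward: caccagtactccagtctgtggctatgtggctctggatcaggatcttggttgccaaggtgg
Interval opposite A630001O12Rik, chr8:129338381-129338440, reverse: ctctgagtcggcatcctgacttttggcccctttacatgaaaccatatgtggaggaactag
Interval near Rmnd1, chr10:5956349-5956408, reverse: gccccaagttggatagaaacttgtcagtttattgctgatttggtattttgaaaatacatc
Interval near Socs2, chr10:94871047-94871106, reverse: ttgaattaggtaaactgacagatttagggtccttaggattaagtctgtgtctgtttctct
Interval near Zfp36l1, chr12:81218298-81218357, reverse: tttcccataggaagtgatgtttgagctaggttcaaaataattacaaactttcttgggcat
The second set holds the 3 probes of an interval that differed between the 2 array slides at every probe, which span a wide range of GC content.
Interval opposite D430036J16Rik, chr9:81540789-81540848, reverse, 23.3% GC: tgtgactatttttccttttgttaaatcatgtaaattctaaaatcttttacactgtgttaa
Interval opposite D430036J16Rik, chr9:81538806-81538865, reverse, 35% GC: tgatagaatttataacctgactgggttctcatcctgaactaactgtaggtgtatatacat
Interval opposite D430036J16Rik, chr9:81571137-81571196, reverse, 51.7% GC: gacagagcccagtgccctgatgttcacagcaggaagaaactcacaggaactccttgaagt
The third set shows a pair of the brightest intervals, whose probes share sequence with probes of protein-coding genes, followed by the 2 variable intervals that the last results describe. The last of these is labelled by its correlation with Meg3 over mice. It holds no gene probe, and the nearest, of 6430411K18Rik, lies 63147 bases away. The count of shared bases is the longest run shared with any matching probe, that of the gene named or of another feature.
Brightest interval, 52 bases shared with a probe of Rps16, chr11:22686751-22686810, reverse: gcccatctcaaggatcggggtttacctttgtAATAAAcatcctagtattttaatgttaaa
Another bright interval, 36 bases shared with a probe of Cox5b, chr4:33364816-33364875, reverse: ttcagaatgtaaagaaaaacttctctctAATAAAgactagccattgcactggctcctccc
Interval beside Trmt44, chr5:35898839-35898898, forward: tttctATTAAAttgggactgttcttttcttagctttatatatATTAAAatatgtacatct
Interval in the Meg3 stretch, chr12:110897958-110898017, forward: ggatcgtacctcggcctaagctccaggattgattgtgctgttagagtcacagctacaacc

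The hexamers were rare in the interval probes. They stood in 427 of the 6615 kept interval probes (6.46%) and in 6.19% of interval probes that were not kept, against 18.2% of kept probes for other features and 13.3% of the other probes not kept. Detection was higher at higher GC content: 27.4% of interval probes below 35% GC were kept, and 61.1% of those at 50% GC or more. The same classes of other probes were kept at 61.4% and 78.0%.

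The label "intergenic" held for most entries and not for all. The intervals had a median width of 11383 bases, with a 10th percentile of 564 and a 90th of 59999. Of the 3007 entries, 2415 (80.3%) held no probe of a named gene. A gene probe lay inside on the same strand in 389 (12.9%), and on the opposite strand alone in 203 (6.75%). Where such an interval is described below, the gene is named with it. The median distance to the nearest gene probe was 12090 bases.

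Both strands were detected at similar rates. Among the 1187 loci probed on the forward strand alone 760 were kept (64.0%), and 711 of 1145 (62.1%) among those probed on the reverse strand alone. Of 1024 loci probed on both strands, 591 were kept on both, 168 on the forward strand alone, 186 on the reverse alone and 79 on neither. The 2 strands of a locus shared little of their variation over the 16 mice: the median Pearson r was 0.21 over 591 loci, and 0.23 over the 67 whose probes were all well above background on every array. Probes of the same strand moved together more, with a median r of 0.42 over 1728 intervals with 2 or more kept probes and 0.75 over the 557 whose probes were all well above background throughout. These correlations share arrays and scaling, and are given as a description.

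The intervals were dim. Their median level was -3.55, against -0.11 for the 20352 other features, and 57.2% of them fell in the lowest quartile of all features and 2.43% in the highest. The median SD over mice was 0.31, against 0.26 for all features. These comparisons set means over probes, for intervals, against the brightest probe alone, for other features. The probes just inside the detection rule, well above background on 4 arrays, had a median level of -5.61 (260 probes), and those just outside, on 3 arrays, -5.84 (373 probes). Only 1183 intervals (39.3%) had every kept probe well above background on all 16 arrays.

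**Figure D1:**
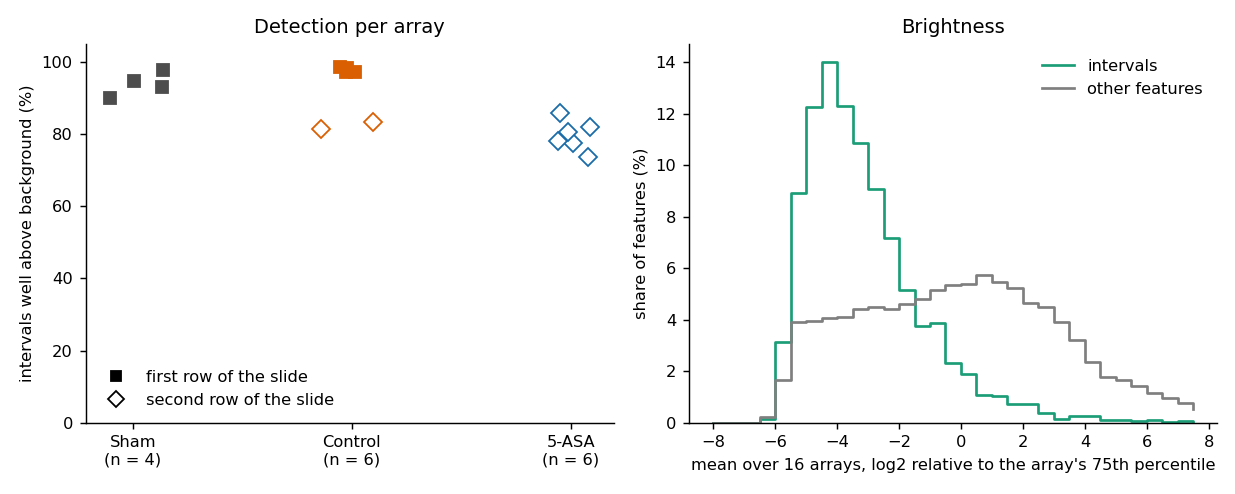
Left, the share of the 3007 intervals scored well above background on each array (percent), by group, with filled squares for arrays in the first row of a slide and open diamonds for the second row: the first-row arrays lie between 89.9% and 98.5%, and the second-row arrays between 73.7% and 85.9%. Right, the distribution of mean level over 16 arrays in bins of 0.5 log2, for intervals (green) and the 20352 other features (grey).

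Detection followed the row of the array on its slide. Arrays in the first row scored 2704 to 2963 of the intervals well above background, and arrays in the second row 2216 to 2583. All Sham arrays and 4 Control arrays lay in the first row, and all 5-ASA arrays and Control 3 and 6 in the second. The 2 second-row Control arrays detected 2504 and 2451 intervals and the other 4 detected 2926 to 2963, with no overlap. For 5-ASA against Sham, treatment and row cannot be told apart. The levels themselves moved less than the detection: the median interval level was between -3.74 and -3.37 on every array. Many intervals also differed between the 2 slides, as described below, and each slide held mice of every group.

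The brightest intervals included ones whose probes match protein-coding genes. The highest mean level, 7.28, belonged to chr11:22681800-22707775 on the reverse strand. Its single probe shares sequence with probes of Rps16, a protein of the small ribosomal subunit, and of a feature without a gene name. The longest run shared with either is 52 bases. The interval chr4:33364774-33364898, reverse, at 6.35, shares sequence with probes of Cox5b, a subunit of cytochrome c oxidase in the respiratory chain, and of LOC100046079. The longest run shared with either is 36 bases. Such sharing of 25 or more bases with a gene probe was found for 125 of the 6615 kept probes (1.89%), in 114 intervals. It was present in 1.80% of intervals in the lowest quartile of levels and in 23.3% of the 73 in the highest, and in 6 of the 20 brightest. How far the level of these intervals comes from the other gene was not tested.

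A bright pair had no such match. The interval chr19:5801802-5802597, reverse, at 6.65 over 2 probes, lies 6030 bases from the nearest probe of Malat1, an abundant nuclear noncoding RNA, on the same strand. Its level ranged from 6.32 to 6.84 over the 16 mice. Its r with Malat1 over mice was -0.09 (adjusted permutation p = 0.825). The distance is to a probe and not to the end of the gene. Whether the interval is part of the Malat1 transcript was not tested. The interval chr17:17481706-17482457, reverse, at 6.35 over 3 probes, averaged 6.28 ± 0.06 (SD, n = 4) over the Sham mice. The Control mean was 6.37 ± 0.03 (SD, n = 6), and that of the 5-ASA mice was 6.38 ± 0.07 (SD, n = 6).

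The first question of the design is what DSS followed by saline changed against water alone. No interval was called: limma gave 0 intervals with an adjusted p under 0.05, in a background of 0.0% of all 23359 features. The smallest adjusted p of an interval was 0.557. At an unadjusted p under 0.05 there were 177 intervals, 86 higher in Control (background 5.48%) and 91 lower (background 3.49%), which is 5.89% of intervals beside 8.96% of all features. The median difference over intervals was 0.008 on the log2 scale, and -0.003 over the other features. On slides 1 and 2 alone the interval median was 0.05 and -0.05. Control and Sham mice did not overlap for 22 intervals that were higher, beside 2.63% of all features, and for 7 that were lower, beside 0.655%. On the forward strand 18 of the 22 were found. Both shares lay below the background.

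The named intervals follow a fixed rule, the 5 with the smallest p in each direction, and none of the differences passed the adjusted test. The interval chr7:134595900-134610975, forward, holds a probe of B130055M24Rik, a lncRNA gene, on its own strand. Its levels were -4.77, -4.67, -5.14 and -4.91 in the 4 Sham mice, and ran from -4.48 to -4.37 with a median of -4.39 in Control and from -4.58 to -4.14 with a median of -4.50 with 5-ASA. All Sham mice lay below every other mouse. The interval was dim, with its probes well above background on 7, 8 and 16 of the 16 arrays. On the 5-ASA arrays the lowest level scored well above background was -4.82 to -4.32. Its r with B130055M24Rik over mice was 0.14 (adjusted permutation p = 0.787). The differences from Sham were 0.47 (SE 0.10) in Control and 0.46 (SE 0.10) with 5-ASA, with limma adjusted p of 0.557 and 0.346.

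The interval chr10:18036490-18059965, reverse, 98319 bases from Ccdc28a, gave differences from Sham of 0.93 (SE 0.25) in Control and 1.09 (SE 0.25) with 5-ASA. The Sham mice lay at -3.20, -3.05, -3.53 and -3.12, the Control mice from -2.71 to -1.88 and the 5-ASA mice from -2.94 to -1.48, so that Sham stood apart. Its limma adjusted p were 0.557 and 0.346, and it rests on 1 probe, well above background on all 16 arrays. The interval chr9:43921700-43939600, forward, opposite Gm10687, gave 0.87 (SE 0.22) and 0.89 (SE 0.22) with no overlap with Sham. It was dim: its probes were well above background on 8, 10 and 7 of the 16 arrays. Its Sham mice lay from -5.85 to -5.18, where the lowest level scored well above background was -5.70 to -5.24.

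Of those lower in Control, 2 lay beside genes on the same strand. The interval chr10:94870971-94871658, reverse, lies 3408 bases from the nearest probe of Socs2, a suppressor of cytokine signalling that acts on the growth hormone receptor pathway. Over its 3 probes the Sham mice lay at 0.11, 0.01, 0.49 and 0.53, the Control mice from -1.07 to 0.02 and the 5-ASA mice from -0.39 to 0.26. Control and Sham overlapped by 1 value, and the Control difference was -0.67 (SE 0.19, limma adjusted p = 0.557). Socs2 itself gave a difference of -0.55 (SE 0.15) in the same fit. The interval chr12:81217572-81233910, reverse, 8491 bases from Zfp36l1, an RNA-binding protein that speeds decay of messages with AU-rich elements, is read by 7 probes. Its Sham mice lay at -2.54, -2.20, -2.09 and -2.26 and its Control mice from -2.81 to -2.55, with no overlap and a difference of -0.44 (SE 0.13, limma adjusted p = 0.557). Zfp36l1 gave -0.37 (SE 0.12).

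**Figure D2:**
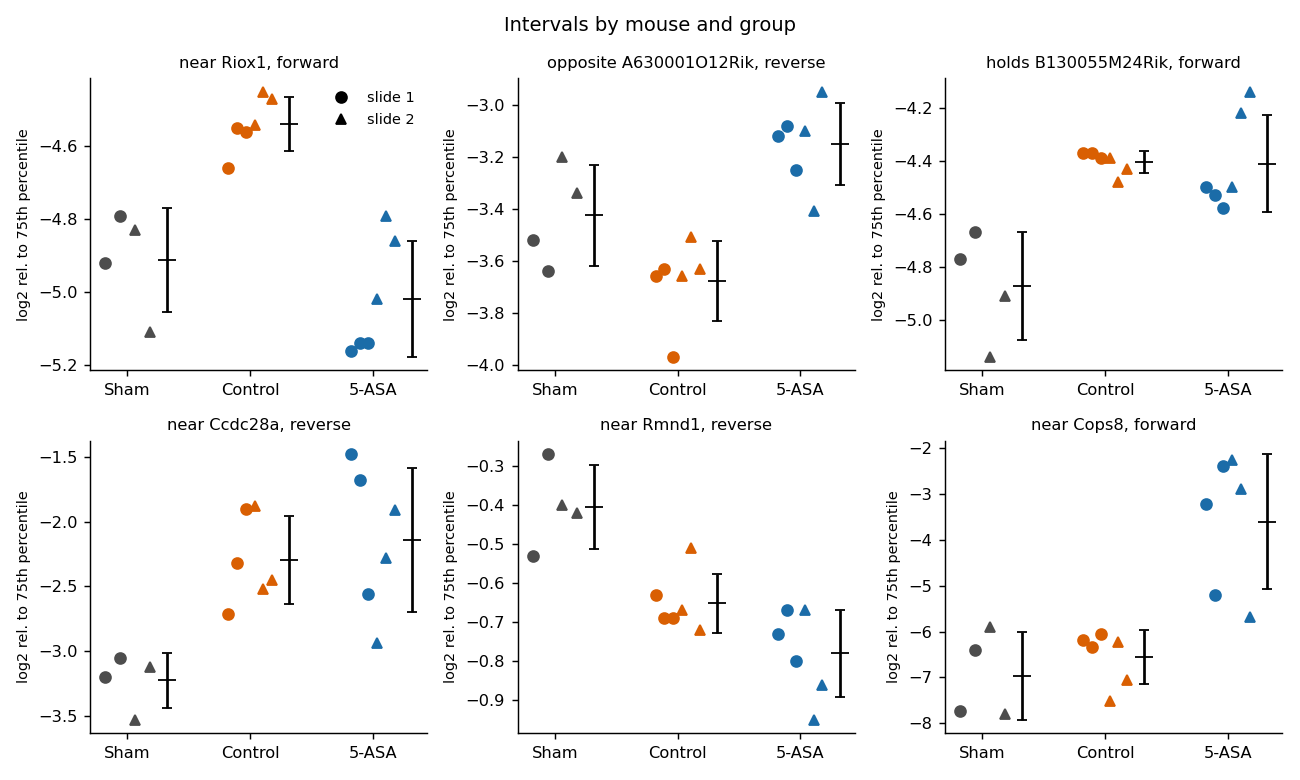
Level of 6 named intervals in each mouse (log2 relative to the 75th percentile of the array), by group (Sham n = 4, Control n = 6, 5-ASA n = 6), with circles for slide 1, triangles for slide 2 and bars for the group mean and SD; vertical scales differ. The interval near Riox1 has all Control mice above the other groups, and the one near Cops8 has all 5-ASA mice above the other groups. The latter was well above background on 4 arrays only, all of 5-ASA mice, and so passed the filter through that group alone.

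The second question is what 5-ASA changed after DSS. Again limma called 0 intervals (background 0.0%), with a smallest adjusted p of 0.359. At an unadjusted p under 0.05 there were 146 intervals, 34 higher with 5-ASA (background 1.29%) and 112 lower (background 2.92%), or 4.86% in all beside 4.21% of all features. The median difference was -0.04 over the intervals, or 0.03 with normexp background correction, and 0.0003 over the other features. On slides 1 and 2 alone it was -0.07 and -0.01. By quartile of level the median was -0.07 in the lowest and -0.01, -0.01 and -0.02 in the next ones, and other features of the lowest quartile gave -0.06. Within the second row of the slides, with 6 5-ASA and 2 Control arrays, the lowest quartile of intervals again gave -0.07. The groups did not overlap for 3 higher intervals (background 0.0214%) and 5 lower ones (background 0.133%).

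The smallest p belonged to chr12:85210777-85262127, forward, 31425 bases from Riox1, a histone and ribosome oxygenase. Its Control mice lay from -4.66 to -4.45 with a median of -4.55, its 5-ASA mice from -5.16 to -4.79 with a median of -5.08, and its Sham mice at -4.92, -4.79, -4.83 and -5.11. Control stood above both other groups with no overlap. The difference was 0.38 (SE 0.09) from Sham to Control and -0.48 (SE 0.08) from Control to 5-ASA, with limma adjusted p of 0.557 and 0.359. The interval was dim: its 5 probes were well above background on 4, 6, 16, 5 and 15 of the 16 arrays. The lowest level scored well above background was -4.82 to -4.32 on the 5-ASA arrays and -6.025 to -4.66 on the Control arrays. The 5 probes also disagreed. The probe at chr12:85217710-85217769 gave 1.20 and -1.03, while the brightest, printed above, which lies next to it, gave 0.01 and -0.12.

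The interval chr8:129336539-129400338, reverse, opposite the lncRNA gene A630001O12Rik, gave like values over its probes. The 5-ASA mice lay from -3.41 to -2.95 and the Control mice from -3.97 to -3.51, with no overlap, and the Sham mice at -3.52, -3.64, -3.20 and -3.34 lay between. Its 5-ASA difference from Control was 0.53 (SE 0.10, limma adjusted p = 0.480), and its 3 probes gave 0.45, 0.61 and 0.51.

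A further difference was at the edge of detection. The interval chr1:92546371-92551596, forward, 37349 bases from Cops8, a subunit of the COP9 signalosome, was read by 1 kept probe of 5, well above background in 4 of the 6 5-ASA mice and in no other mouse. A probe below background in a whole group has only a bound there, so the fold was taken against the lowest signal scored well above background on each array, or the probe's own value where that was higher. Taken so, the fold was 3.58 for 5-ASA over Control and 3.70 for 5-ASA over Sham. All 6 5-ASA mice entered at their measured values, also those not well above background, so neither fold is a strict lower bound. The 5-ASA mice spread widely, from -5.68 to -2.26, and the measured group means were -6.96 in Sham, -6.56 in Control and -3.61 with 5-ASA. The interval chr13:65341237-65342006, reverse, also detected in 4 5-ASA mice alone, gave a fold of 1.65 over Control, with the same limit. Both intervals passed the filter of 4 arrays only through the 5-ASA mice, so a difference in that direction is fixed in part by the filter.

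Some of the intervals named as lower with 5-ASA were not well above background in that group. The interval chr4:131734714-131741964, forward, 713 bases from Ythdf2, a reader of methylated adenosine in messages, was well above background in 1 Sham, 4 Control and 0 5-ASA mice. The interval chr4:155564927-155571580, reverse, 1953 bases from the interferon-induced gene Isg15, was well above background in 2 Sham, 4 Control and 0 5-ASA mice. With no 5-ASA mouse above background and a bound under 1, no fold is given for either, and all 5-ASA arrays lay in the second row. The r of the second with Isg15 over mice was 0.13 (adjusted permutation p = 0.787).

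The third comparison sets 5-ASA after DSS against water alone, with the slide row confounded. Here limma called 0 intervals too (background 0.0%), with a smallest adjusted p of 0.346. There were 231 at an unadjusted p under 0.05 (background 10.9%), 76 higher (background 5.69%) and 155 lower (background 5.21%). The median difference was -0.04, or 0.03 with normexp, and -0.03 and -0.06 on slides 1 and 2 alone. The groups did not overlap for 18 higher intervals (background 0.873%) and 34 lower (background 0.783%), and 25 of the 34 were on the reverse strand. The interval chr10:5956284-5956943, reverse, 12918 bases from Rmnd1, a mitochondrial translation factor on the opposite strand, is read by 3 probes. Each was well above background on all 16 arrays. Its levels were -0.53, -0.27, -0.40 and -0.42 in Sham, -0.72 to -0.51 in Control and -0.95 to -0.67 with 5-ASA. Sham and 5-ASA did not overlap, and the difference was -0.37 (SE 0.08, limma adjusted p = 0.346). Its 3 probes gave -0.32, -0.43 and -0.37.

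More intervals were called between the 2 slides than between any 2 groups. Each slide held 2 Sham, 3 Control and 3 5-ASA mice. The slides set 8 mice against 8 and the groups 4 or 6 against 6, so the counts rest on unlike numbers. The slide comparison was added after the values were seen. With the groups in the model, limma called 866 of the 3007 intervals (28.8%) between slides, beside 19.4% of all features tested and 3670 of the 20352 others. Of these 762 were higher on slide 1 (background 13%) and 104 lower (background 6.39%). The 8 mice of slide 1 lay above all 8 of slide 2 for 281 intervals (background 4.88%), and below them for 6 (background 0.612%). The median slide difference was 0.14 over intervals and 0.01 over other features. Each slide carried different mice, so slide and mouse cannot be told apart.

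By strand, 443 of 1519 forward and 423 of 1488 reverse intervals were called between slides, and bright intervals were among them. In the quartiles of level, from dim to bright, 23.4%, 36.3%, 36.4% and 30.1% of intervals were called, against 17.7%, 20.2%, 18.8% and 15.7% of other features. Among intervals well above background throughout 455 of 1183 were called (38.5%). The row of the array in the model left 842, quantile normalization 851, the authors' deposited values 864 and normexp background correction 698.

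The share was largest for probes rich in GC. Of kept interval probes at 60% GC or more, 78 of 415 (18.8%) had all slide 1 values above all slide 2 values, against 3.0% at 35 to 40% GC and 11.4% below 35%. Other probes gave 12.7%, 2.96% and 13.4% in these classes. Within an interval, the separation mostly belonged to single probes: of 1728 intervals with 2 or more kept probes, 272 had at least 1 separated probe, 230 exactly 1, and 16 had all. The 73 probes over 1 log2 higher on slide 1 lay in 63 of these intervals, and the 114 other probes there had a median slide difference of 0.25.

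The clearest case held at every probe. The interval chr9:81537835-81583227, reverse, opposite the lncRNA gene D430036J16Rik, lay from -0.72 to -0.49 in the 8 mice of slide 1 and from -2.33 to -2.0 in the 8 of slide 2. The means were -0.59 ± 0.08 and -2.23 ± 0.12 (SD, n = 8 each), a difference of 1.64 (SE 0.06, limma adjusted p = 6.78e-10). Its 3 probes, printed above, gave 2.46, 1.64 and 0.81 in order of rising GC. The group differences there were 0.05, -0.11 and -0.06, far below their SE. The interval chr12:111287772-111333890, forward, 181031 bases from Dio3os, gave 2.32 (SE 0.16, limma adjusted p = 3.50e-07), but its 3 probes all lie within chr12:111300512-111300631 and are no independent readings. Its reverse strand differed by 1.19 (limma adjusted p = 0.000112).

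**Figure D3:**
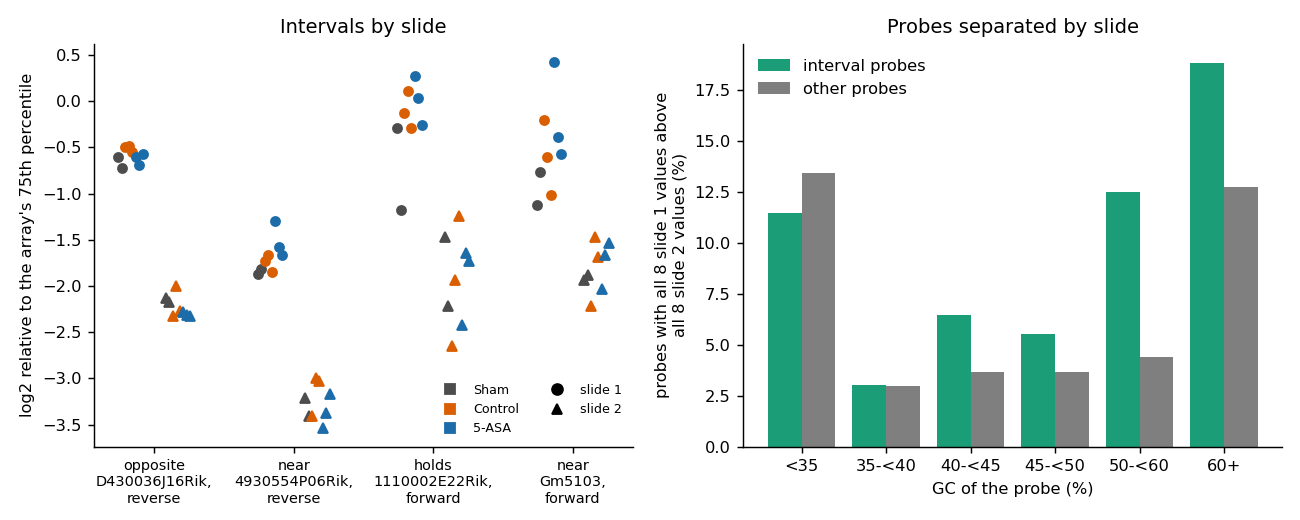
Left, level of 4 intervals in each mouse (log2 relative to the 75th percentile of the array), with circles for slide 1, triangles for slide 2 and colours for groups: slide 1 lies above slide 2 in each, whatever the group. Right, the share of kept probes whose 8 slide 1 values all exceed the 8 slide 2 values (percent), by GC content of the probe, for interval probes (green) and other probes (grey).

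Each interval was also set against its nearest tested gene over the 16 mice. With the gene's probe inside the interval on the same strand, the median r was 0.44 over 302 intervals, and 0.66 over the 147 well above background throughout. With it inside on the opposite strand the median was 0.10 (181 intervals). At up to 5000 bases it was 0.16 on the same strand (286) and 0.07 on the opposite (188), and beyond 20000 bases it stayed between 0.03 and 0.12. These are descriptions over intervals that share arrays.

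**Figure D4:**
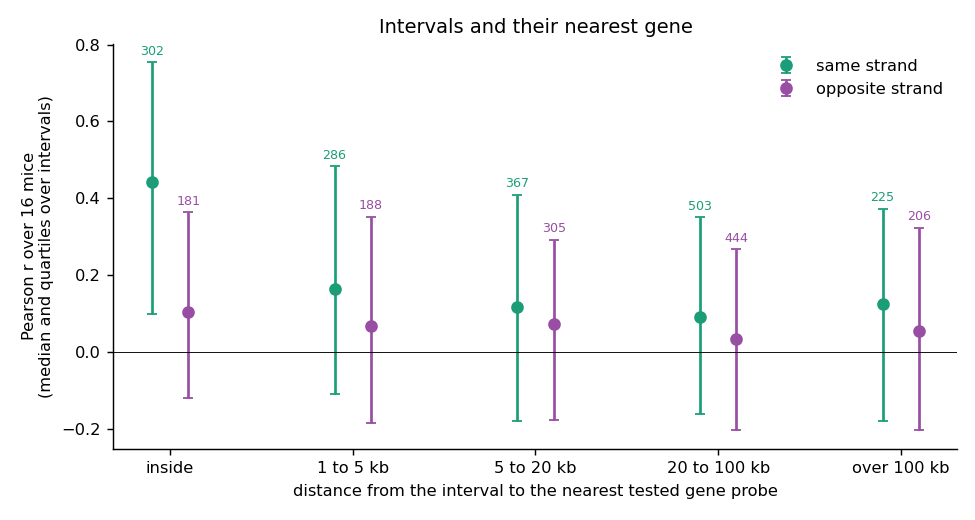
Pearson r over 16 mice between each interval and its nearest tested gene, as the median (point) and quartiles (bars) over intervals, by distance and by strand, with the number of intervals above each bar. Same-strand genes with a probe inside the interval give the highest median, 0.44.

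Of 43 named intervals tested against their nearest gene over the 16 mice with 100000 permutations, 6 had an adjusted p under 0.05. The interval beside Socs2 followed it with r = 0.94 and rho = 0.95 (each adjusted permutation p = 0.000107, from a p of 1e-05 that is the smallest these permutations can give). Without the 2 mice farthest from the median of Socs2, r was 0.91. It was 0.85 on slide 1, 0.98 on slide 2 and 0.91 after the group means were removed. The interval beside Zfp36l1 followed it with r = 0.82 (adjusted permutation p = 0.000258) and rho = 0.79 (0.00387), with 0.71 without the 2 farthest mice, 0.72 and 0.91 on the slides and 0.67 within groups. Whether the interval and the gene are parts of 1 transcript was not tested.

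A further 3 of the 6 hold the gene itself. The intervals chr9:78107225-78118850 and chr9:78104935-78116974, forward, hold Gm3776, a gene of the alpha-class glutathione S-transferase cluster, and gave r of 0.999 and 0.987 with it. The first shares all 60 bases of 1 probe with a probe of Gm3776 or of Gm10639. The interval chr17:34018371-34019394, reverse, holds Kifc1, a minus-end-directed kinesin of the mitotic spindle, shares 59 bases with it and gave r = 0.998. The last, chr9:81537835-81583227, gave r = 0.71 (adjusted permutation p = 0.00265) with Irak1bp1, 1157956 bases away, which differed between the slides by 0.25 (SE 0.08, limma adjusted p = 0.0463). Within the slides r was 0.48 and 0.71.

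By the rule on spread, the most variable intervals were all dim, read by 1 kept probe on 4 or 5 arrays. The interval chr19:29969050-29980675, forward, 54426 bases from Il33, an alarmin of the interleukin-1 family, lay from -4.37 to -3.90 on slide 1 and from -7.98 to -6.55 on slide 2. Its r with the enteric neuron and glia score was 0.66 (adjusted permutation p = 0.0432), but rho gave 0.168 after adjustment and r was -0.09 within slide 1. The 10 most variable intervals among those well above background throughout were therefore added after the values were seen, and correlated with the scores of 16 marker lists, in 240 relations together with the first 5. A score is the mean of the list's genes, each centred over the arrays.

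The interval chr5:35893909-35899497, forward, whose nearest gene probe is that of Trmt44, a transfer RNA methyltransferase 498 bases away on the opposite strand, tracked the proliferation score. Its levels ran from -1.32 to 0.46 in Sham, from 0.01 to 1.37 in Control and from -0.79 to 2.13 with 5-ASA. Over 16 mice r was 0.93 and rho 0.88 (adjusted permutation p of 0.0024 and 0.0036), 0.88 without the 2 farthest mice, 0.98 and 0.99 on the slides and 0.92 within groups. With Trmt44 itself r was 0.46 (adjusted permutation p = 0.31). It rests on 1 probe of 21.67% GC. Its group differences were 0.84 (SE 0.52) from Sham to Control and 1.16 (SE 0.52) from Sham to 5-ASA, with limma adjusted p of 0.625 and 0.435. The proliferation score itself ran from -1.10 to -0.29 in Sham, from -0.20 to 0.52 in Control and from -0.75 to 1.11 with 5-ASA. The interval at Kifc1, a gene of dividing cells, gave r = 0.84 and rho = 0.89 with that score (adjusted permutation p of 0.0072 and 0.0024). Over all intervals 1.1% had an r over 0.7 with the score, against 6.06% of all features.

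The levels of the first interval at Gm3776 were 3.01, 2.28, 1.84 and 2.06 in Sham, 2.58 to 4.94 in Control and 2.16 to 4.37 with 5-ASA, with overlap between all groups. It correlated with the stratified squamous epithelium score, markers of anal or skin-like lining, at r = 0.77 and rho = 0.86 (adjusted permutation p of 0.0232 and 0.0072), 0.67 without the 2 farthest mice and 0.71 and 0.87 on the slides. The second interval gave r = 0.70 and rho = 0.77 with it (adjusted permutation p of 0.0717 and 0.0427). Of that list 8 of 13 genes were measured, and its score ran from -0.47 to 0.11 in Sham, -0.19 to 0.65 in Control and -0.34 to 0.36 with 5-ASA. The interval beside Trmt44 correlated with the same score at r = 0.76 and rho = 0.78 (adjusted permutation p of 0.0232 and 0.0336), 0.77 without the 2 farthest mice and 0.56 and 0.61 on the slides. With the fibroblast and matrix score the intervals at Gm3776 gave r of -0.79 and -0.81 (each adjusted permutation p = 0.0232), but rho of -0.48 and -0.49 (0.363 and 0.347). Without the 2 farthest mice those r were -0.49 and -0.52. The part of such cells in these results was not tested.

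On chromosome 12 a run of intervals moved together for the most part. It lies in the Dlk1-Dio3 imprinted domain, in which Meg3, a noncoding RNA, and Mirg, a host of microRNAs, are expressed from the maternal chromosome and Dlk1, a membrane protein related to Notch ligands, from the paternal one. The run was chosen after its values were seen, so no test is given. From chr12:110842149-110988678 there were 13 intervals, 9 forward and 4 reverse. Their 78 pairs had a median r of 0.85, from -0.17 to 0.98, with 45 pairs over 0.7. Several of these intervals overlap one another, and some of their probes share bases, so they are not all independent readings.

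Only Meg3, Dlk1, Mirg and Dio3os were set against the whole run. Among them Meg3 had the highest median r with these intervals, 0.92, followed by Dlk1 with 0.71, Mirg with 0.22 and Dio3os with 0.18. For the intervals whose nearest tested gene was 6430411K18Rik, r with that gene ran from 0.04 to 0.59. The lowest r with Meg3 were 0.10 for chr12:110896603-110940553, reverse, and 0.21 for chr12:110967974-110969051, forward. The latter holds a probe of Mirg on its own strand, as do chr12:110944403-110988678 and chr12:110973190-110987668, forward. Their r with Mirg were 0.09, 0.24 and 0.18. The reverse strand of chr12:110944403-110988678 lies opposite Mirg and gave 0.12. The interval chr12:110894095-110899517, forward, gave r = 0.97 with Meg3, and 0.94 and 0.98 on the slides. Its levels were -0.73, -1.75, -2.64 and -2.01 in Sham, -3.06 to -0.69 in Control and -2.54 to -0.40 with 5-ASA. The lowest 3 mice were Sham 3, Control 4 and 5-ASA 4, 1 of each group and all on slide 2, and the same 3 were lowest in 8 of the 13 intervals. Meg3 lay at 1.79, 2.02 and 2.26 in these mice and between 2.80 and 4.49 in the others. The spread lay between mice of a group more than between groups: the interval's differences were 0.38 (SE 0.50), 0.13 (SE 0.45) and 0.51 (SE 0.50), and those of Meg3 0.79 (SE 0.53), -0.11 (SE 0.48) and 0.68 (SE 0.53), for Control against Sham, 5-ASA against Control and 5-ASA against Sham.

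**Figure D5:**
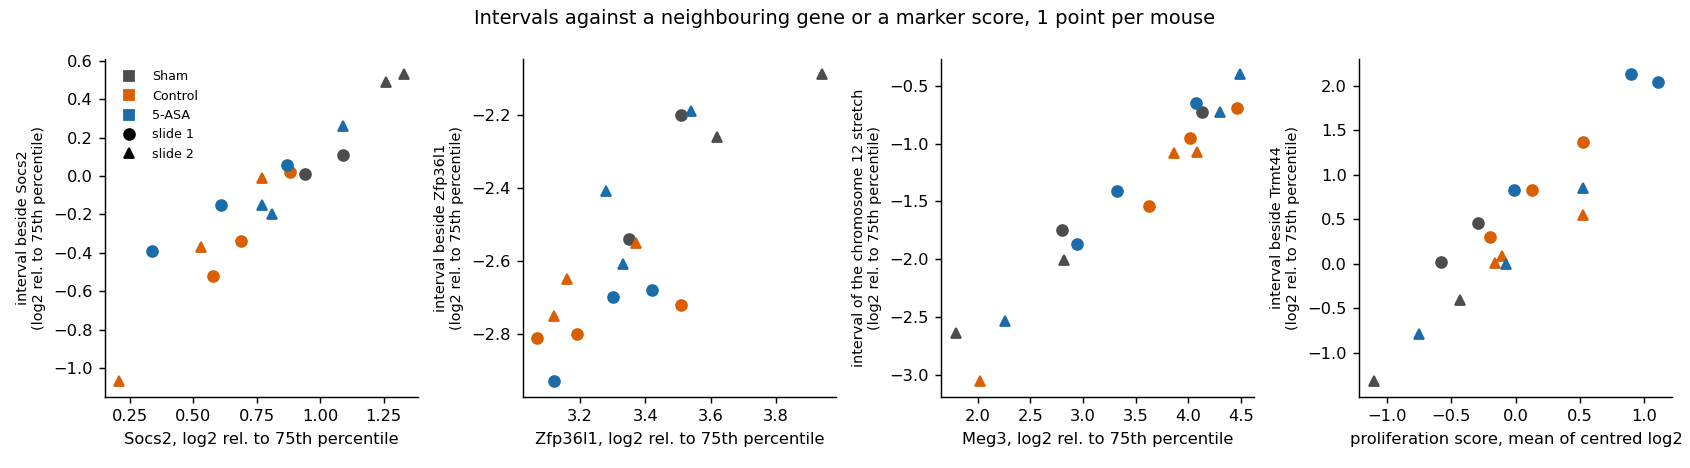
Level of 4 intervals in each of 16 mice (log2 relative to the 75th percentile of the array) against Socs2, Zfp36l1 and Meg3 on the same scale and against the proliferation score (mean of centred log2 values), with colours for groups, circles for slide 1 and triangles for slide 2. The r is 0.94, 0.82, 0.97 and 0.93 from left to right.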

How the data were processed

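Total RNA (0.2 ug per mouse) was labelled with Cy3 and hybridised to 16 one-colour Agilent arrays, 1 per mouse, on 2 slides. The deposited scanner files hold spot intensity as Agilent Feature Extraction 10.10.1.1 wrote it, per the file headers, with background already subtracted and flags for spots well above background. The authors' deposited value table (55821 probes) is on a log2 scale and was used as an alternative. Processed signals were put on a log2 scale and the 75th percentile of each array was subtracted. Outlying spots (95 of the interval probes' spots, 0.0367%) and the outer 12 spot rows at each end were left out. Probes were averaged for intervals only. A gene took the value of a single probe, the brightest on average of those that passed. Gene probes were named through RefSeq (GRCm38.p6) where possible (31086 of 55681 probes), and coordinates are those of the files, in mm9. No mm9 genome was used here. The group tests came from limma 3.58.1 (R 4.3.3), fitted as 1 model of 3 groups over all 23359 features, with Benjamini-Hochberg adjustment. Named intervals are, per comparison and direction, the 5 with the smallest p, and the 5 brightest and 5 most variable; 3 of the 5 most variable are not reported here. The members and lists were chosen with earlier results of these data known. The fits were tested on simulated data. No spot was saturated. The number of arrays limits the precision.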

Additional observations from a re-analysis of the deposited data

Results flagged for a closer look

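Among 96 groups of 4 to 6 mice in 32 named intervals, 5 had a mouse far from the rest of its group by Dixon's test, which chance alone gives for about 1 group in 20. In chr4:41261959-41267670, forward, Sham 3 lay at -4.23 and the next at -4.44. In chr7:16584852-16657252, reverse, Sham 2 lay at -1.82 and the next at -2.0. In chr8:129336539-129400338, reverse, Control 3 lay at -3.97 and the next at -3.66. In chr8:42462791-42466106, reverse, near Frg1, Control 5 lay at -3.72 and the next at -3.85, and 5-ASA 4 at -3.36 and the next at -3.94.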

How the results depend on the processing

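For the 5-ASA comparisons the filter on dim probes moved the counts most among the alternatives run, and for Control against Sham its removal left 0 calls. Without it, limma called 513 of 4380 intervals between 5-ASA and Control, with a median difference of 0.24, and 658 between 5-ASA and Sham, with a median of 0.31. With normexp background correction, and the filter kept, the median of each of these comparisons turned from -0.04 to 0.03. Treatment and slide row cannot be told apart for 5-ASA against Sham, and 4 of the 6 Control arrays lay in the other row. Among the alternative settings the sign also turned for chr9:31834945-32015745 (0.26) and chr4:155564927-155571580 (0.25) in 5-ASA against Control. In 5-ASA against Sham it turned for chr15:96091428-96115684 (0.31), chr7:28797929-28798370 (0.14) and chr4:155564927-155571580 (0.26). The last 3 were not well above background in any 5-ASA mouse. With the outer spot rows kept, 5 intervals were called between Control and Sham and 4 between 5-ASA and Sham. Leaving out 1 mouse at a time gave 0 to 1 calls for Control against Sham (1 without Sham 2), 0 to 0 for 5-ASA against Control and 0 to 1 for 5-ASA against Sham (1 without Sham 2, Sham 3 or 5-ASA 4), with medians of -0.03 to 0.05, -0.08 to -0.01 and -0.07 to 0.01. Without Sham 2, chr7:3338500-3360725 was called at -2.20 (limma adjusted p = 0.035), and without Sham 3, chr15:96091428-96115684 was called lower with 5-ASA (limma adjusted p = 0.0405). Of 874 values of named intervals under 30 settings, 857 kept their direction and their side of the threshold, 12 passed it and 5 changed sign. Samples of the same replicate number correlated at -0.25 to 0.64. Samples of unlike number were not set beside them, so whether the numbers pair the mice was not tested. With the replicate block limma called 0 intervals in each comparison (328, 221 and 310 at an unadjusted p under 0.05), with medians of 0.05, -0.04 and 0.01. With slide as a block limma called 0 intervals too (259, 235 and 328 at an unadjusted p under 0.05), and 0 with the row as a covariate (109, 162 and 114).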
